A study of Hordeum vulgare with 39 samples.

Results

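In the developing grain of barley, 135 genes were abundant at some stage in both the endosperm and the seed maternal tissues while staying scarce in the embryo at every stage sampled. They were chosen from the read counts of the deposited table, expressed as CPM, counts scaled to a library total of 1000000. A member had a highest stage mean of at least 20 CPM in endosperm and in seed maternal tissues, the 2 maxima lay less than 10-fold apart, and each was at least 10 times the highest stage mean in embryo. These 135 genes are 0.161% of the 83990 rows of the table, of which 50367 had any count. Without the embryo condition, 7092 genes met the other conditions; they are called the shared genes below and serve for comparison. The same rule with the tissues exchanged gave 181 genes of embryo and seed maternal tissues low in endosperm, and 152 genes of endosperm and embryo low in seed maternal tissues. The low level in embryo was therefore a condition of the choice and not a result.

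All samples came from 1 barley cultivar (Hordeum vulgare cv. Morex, a six-rowed spring type), whose plants grew under long days in a climate chamber. Grains were taken apart by hand at 5 stages, counted in days after pollination (DAP). The stages were 4, 8, 16, 24 and 32 DAP; endosperm was taken at all of them, embryo at all but the first and seed maternal tissues at all but the last stage, with 3 libraries per group in 13 groups. The 39 libraries of poly-A selected RNA held 6148131 to 36307192 counts in endosperm, 15248254 to 36732347 in embryo and 25882919 to 34193328 in seed maternal tissues. Nothing in the labels says that replicates came from separate plants, so p-values measure the spread between these samples, which may be technical.

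As background, the grain is built from tissues of different origin. Endosperm and embryo both arise from double fertilization; the endosperm fills with starch and storage protein and is later consumed by the seedling. The seed maternal tissues, among them pericarp, seed coat and nucellus, belong to the mother plant, surround the filial tissues, and carry sucrose and amino acids to the endosperm. Nucellus and starchy endosperm both die as the grain develops. The deposited table gives identifiers only, and none of the 135 matched a name in the reference table at hand. No function, sequence or marker can therefore be given for a member, and the tissue labels could not be checked against marker genes. Members are named by identifier without the shared prefix HORVU.MOREX.r3.

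Together the 135 genes took the largest share of the library in seed maternal tissues at 8 DAP. There their summed level was 2.45% ± 0.25 of the counts (SD, n = 3), against 0.607% ± 0.0943 at 4 DAP, 1.36% ± 0.175 at 16 DAP and 0.891% ± 0.0837 at 24 DAP. The summed level of endosperm was highest at the first stage, at 1.22% ± 0.0698 at 4 DAP, and lay at 0.843% ± 0.0989, 0.340% ± 0.0891, 0.318% ± 0.0149 and 0.272% ± 0.00592 at the 4 later stages (n = 3 each). On this scale the order of the tissues changed between 4 and 8 DAP. At 4 DAP the 3 endosperm libraries, from 11720 to 13037 summed CPM, lay above the 3 seed maternal ones, from 4985 to 6635. At 8 DAP they lay below them, with 7299 to 9129 against 21664 to 26324. These sums are over raw totals. TMM scaling factors were 0.454 to 0.921 in endosperm and 1.21 to 1.35 in seed maternal tissues, so scaling by them would raise endosperm against seed maternal levels. The 4 DAP endosperm libraries also carry library numbers of a series of their own. In embryo the summed level was between 76.5 and 203.6 CPM in all 12 libraries. The median member followed another course in endosperm, with 8.33 CPM at 4 DAP and 33.6 at 8 DAP, and the sum was more concentrated early on: 5 members made up 43.0% of it at 4 DAP and 21.0% at 8 DAP. In seed maternal tissues the median member stood at 12.6, 63.1, 40.7 and 29.0 CPM over the 4 stages. In these bulk samples, fewer cells of a type and less RNA per cell cannot be told apart.

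**Figure D1:**
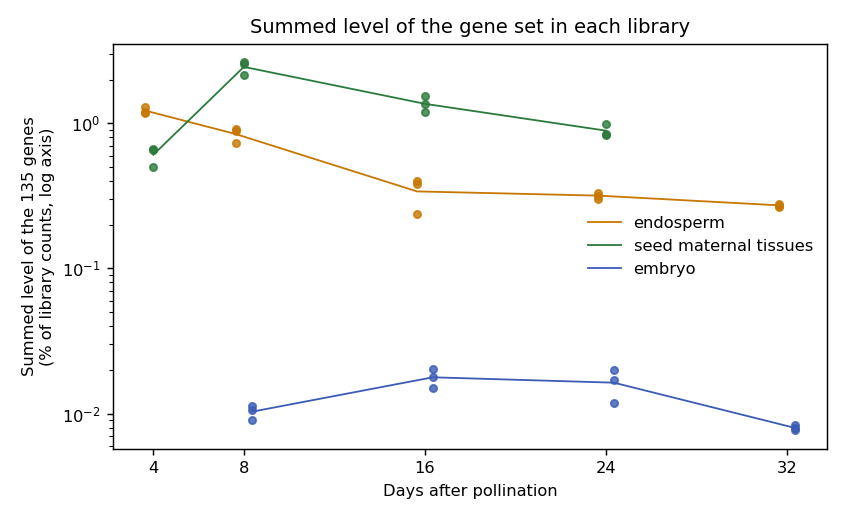
Summed level of the 135 genes as a percentage of the counts of each library (log axis) against days after pollination; points are libraries, shifted sideways by tissue, and lines join the means of 3 libraries. The endosperm points lie above the seed maternal points at 4 DAP and below them from 8 to 24 DAP.

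The highest stage mean of a member ran from 20.1 to 1568 CPM in endosperm (median 71.0) and from 20.7 to 2474 CPM in seed maternal tissues (median 85.4). It was larger in seed maternal tissues for 87 members and in endosperm for 48, or 35.6% against 44.3% of the shared genes. The 2 maxima lay 1.02-fold to 9.17-fold apart, with a median of 2.48-fold, and 51 members were under 2-fold. In embryo the highest stage mean had a median of 0.749 CPM and reached 12.2 CPM. For 28 members every embryo library held 3 counts or fewer, and for 4 of these all 12 held 0. At the edges of the rule, 7HG0751420.1 was taken with a smaller maximum of 20.06 CPM and 6HG0567430.1 left out with 19.9 CPM. 3HG0246250.1, with maxima 9.17-fold apart, was taken and 1HG0005520.1, at 10.1-fold, was not. 1HG0067870.1 lay 10.03-fold above its embryo maximum and was taken, and 1HG0081970.1, just under 10-fold, was not. With maxima taken over 8, 16 and 24 DAP alone, the stages at which all 3 tissues were sampled, 103 of the 135 were kept.

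A total of 3 libraries stood apart over these genes. The first seed maternal library at 4 DAP lay at least 5-fold above both other replicates for 34 of the 135 members, counting members at 1 CPM or more in it. Among genes averaging at least 20 CPM in that group the same held for 7 of 53 members and for 7 of all 8638 genes, so all 7 were members. The third library of the group lay at least 5-fold above both others for 192 of the 8638 genes, 3 of them members. The 34 had a median of 16.7 CPM in replicate 1. Their level there was a median of 10.8% of their seed maternal mean at 8 DAP, from 0.734% to 295%. The seed maternal peak fell on 8 DAP for 27 of them, and the endosperm peak on 4 DAP for 17 and on 8 DAP for 17. Replicate 1 also held 107 of 1479 genes at 100 CPM or more in endosperm at 4 DAP under 1% of that level. Replicates 2 and 3 held 131 and 153 of these genes under 1%. In endosperm at 16 DAP, replicate 2 was at least 5-fold above both others for 13 members, with a median of 4.79 CPM in it. Replicate 3 was at least 5-fold below both others for 10 members. Among genes averaging at least 20 CPM in that group, fewer deviated. Replicate 2 was above for 2 of 52 members and 3 of all 5425 genes. Replicate 3 was below for 2 of 52 members and 34 of the 5425 genes. The library number of replicate 3 belongs to a different series than those of replicates 1 and 2. Several counts of calls below are also given without such a library, and the origin of the differences was not tested.

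These genes reached 20 CPM at fewer stages than the shared genes did. In endosperm 54 members (40%) reached a mean of 20 CPM at a single stage, against 16.3% of the shared genes, and 4 members (2.96%) did so at all 5 stages, against 37.3%. The seed maternal mean of 30 members (22.2%) reached 20 CPM at a single stage and that of another 30 at all 4, against 6.95% and 78.7% of the shared genes. The highest stage mean exceeded the lowest by a median of 127-fold in endosperm and 23.2-fold in seed maternal tissues, with stages under 0.1 CPM set to 0.1, against 4.77-fold and 1.64-fold for the shared genes. A low embryo level was not the only thing the rule asked for, since a tall maximum helps a gene to pass it, so these shares describe the members and were not tested.

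Of the endosperm peaks, 40 fell on 4 DAP, 58 on 8 DAP, 17 on 16 DAP, 6 on 24 DAP and 14 on 32 DAP. These are 29.6%, 43.0%, 12.6%, 4.44% and 10.4% of the members, against 23.1%, 39.7%, 5.78%, 6.90% and 24.5% of the shared genes. Of the seed maternal peaks, 19 fell on 4 DAP, 57 on 8 DAP, 29 on 16 DAP and 30 on 24 DAP. Here the shares were 14.1%, 42.2%, 21.5% and 22.2% of the members, against 40.1%, 11.5%, 15.8% and 32.6% of the shared genes. Over the 4 stages sampled in both tissues, 60 members peaked at the same stage in both, 59 earlier in endosperm and 16 later in endosperm. For the shared genes these outcomes were nearly even, with 34.2%, 32.1% and 33.7%.

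Peak stages fell into 5 combinations of at least 10 members. The largest was a peak at 8 DAP in both tissues, with 31 members (23.0%, against 5.44% of the shared genes). A further 20 members peaked at 4 DAP in endosperm and at 8 DAP in seed maternal tissues (14.8% against 2.21%). An endosperm peak at 8 DAP came with a seed maternal peak at 16 DAP in 14 members (10.4% against 5.60%) and at 24 DAP in 10 (7.41% against 10.2%). In 10 members both tissues peaked at 4 DAP (7.41% against 13.6%). The other 50 members were spread over smaller combinations.

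**Figure D2:**
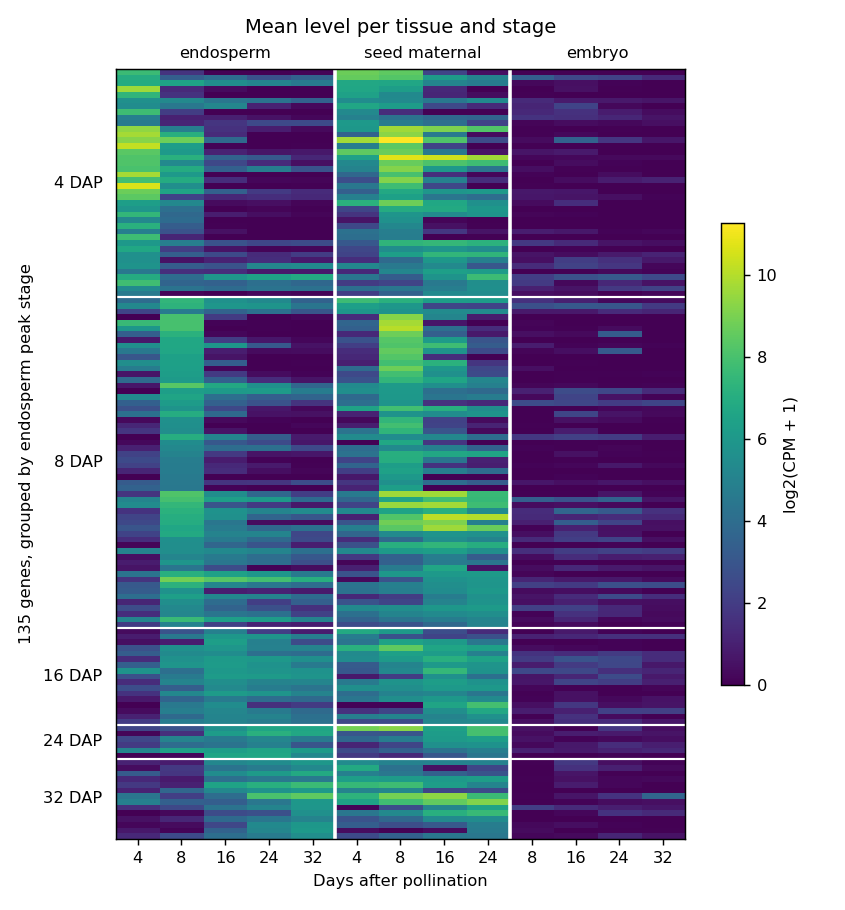
Mean level of the 135 genes in each of the 13 groups, as log2(CPM + 1), with rows grouped by the stage of the endosperm peak (white lines) and ordered by the seed maternal peak within it. Genes that peak at 4 and 8 DAP in endosperm make up most rows, and the embryo columns are dark throughout.

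Between 4 and 8 DAP, 64 of the 135 genes were called higher and 39 lower in endosperm, by edgeR's quasi-likelihood test at a Benjamini-Hochberg adjusted p under 0.05 with at least a 2-fold change. Of all 29594 genes tested, 25.9% were called higher and 20.9% lower (46.8% in either direction), so many genes of this tissue changed at that step. All 4 DAP endosperm libraries carry library numbers of a series of their own in their titles, so stage and library series cannot be told apart there. At the same step 76 members were called higher and 5 lower in seed maternal tissues, against 6.61% and 4.24% of all genes (10.8% in either direction). Without the first library at 4 DAP the counts were 72 and 3. The median log2 change of the members was 1.41 in endosperm, against 0.16 over all genes, and 1.62 in seed maternal tissues, against 0.00. With members at 0 counts in a group set to their bound these medians were 1.38 and 1.62. The rule chose members by high stage means in these same counts, which can favour genes that change over stages. The shares of members called, here and below, therefore describe the chosen set and are no test against all genes.

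For 20 members the tissues moved in opposite directions at this step, called lower in endosperm and higher in seed maternal tissues. Of all genes tested, 1.40% met both calls. The levels crossed for the same number, 20, called higher in endosperm at 4 DAP and lower at 8 DAP against the seed maternal tissues, as were 1.35% of all genes, and 11 members were in both groups. Both counts were chosen after the calls had been seen. The first was 12 without the second seed maternal library at 4 DAP and 22 without the first; the second was 13 without the third endosperm library at 8 DAP. The difference between the tissues in their change from 4 to 8 DAP was itself called for 93 members, 31 with the endosperm change the more positive and 62 with it the more negative, against 20.7% and 17.0% of all genes (37.8% in either direction). Without the first seed maternal library at 4 DAP it was called for 97.

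**Figure D3:**
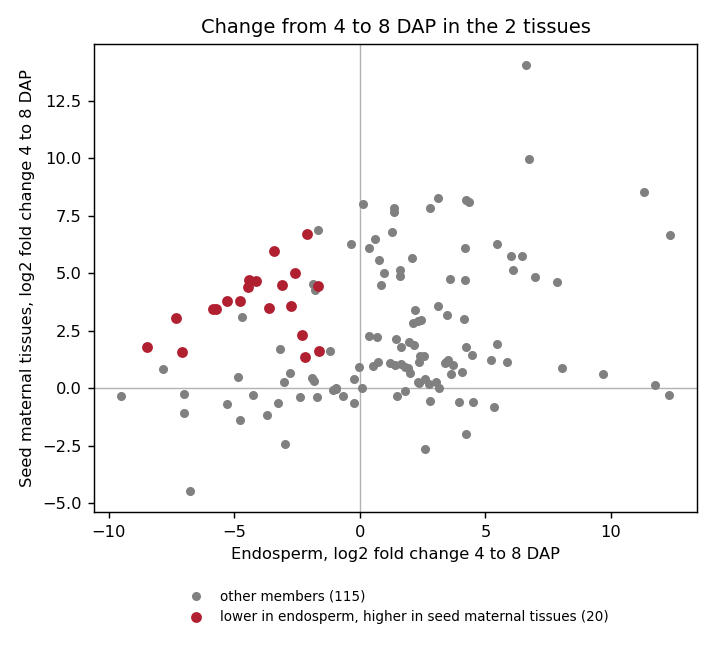
Fitted log2 fold change from 4 to 8 DAP in endosperm (horizontal) and in seed maternal tissues (vertical); each point is 1 of the 135 genes, and red marks the 20 called lower in endosperm and higher in seed maternal tissues. Values of genes with 0 counts in a group depend on the prior count of the fit and are no estimate of size.

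The member with the highest smaller maximum, 3HG0285340.1, showed this exchange. Its 3 endosperm libraries held 884, 408 and 727 CPM at 4 DAP and 13.7, 13.4 and 54.4 CPM at 8 DAP. Its seed maternal libraries held 185, 0.510 and 0.124 CPM at 4 DAP and 235, 665 and 1528 CPM at 8 DAP. All endosperm libraries of 4 DAP lay above those of 8 DAP, and all seed maternal ones below, with the first seed maternal library at 4 DAP far above its replicates. The log2 change was −5.29 (SE 1.33, adjusted p = 0.00137, edgeR) in endosperm and 3.80 (SE 1.24, adjusted p = 0.0367, edgeR) in seed maternal tissues. The latter call was lost in 5 of the alternatives run, among them leaving out the second library at 4 DAP (adjusted p = 0.0962) or the third at 8 DAP (adjusted p = 0.133). Its level then stayed at 519, 513 and 538 CPM in seed maternal tissues at 16 DAP, while the endosperm libraries held 2.42, 3.52 and 0.245 CPM. The gene with the preceding identifier, 3HG0285330.1, was a member too.

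A second member of this kind, 5HG0524000.1, was lost from both tissues later. In endosperm it stood at 945, 1053 and 567 CPM at 4 DAP, at 173, 169.5 and 59.2 CPM at 8 DAP, and at 0 counts in all 6 libraries of 24 and 32 DAP, a fall from 4 to 32 DAP of at least 23223-fold against a floor of 3 counts over the group. In seed maternal tissues it went from 28.9, 0.540 and 2.42 CPM at 4 DAP to 691, 904 and 297 CPM at 8 DAP. The groups did not overlap in either tissue. By 24 DAP the seed maternal libraries held 0.536, 0.130 and 0.1 CPM.

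3HG0283090.1 had the strongest difference of this sign among members, by the naming rule for the step from 4 to 8 DAP. Its endosperm libraries fell from 39.7, 43.8 and 66.8 CPM to 0.818, 0.120 and 0.496 CPM, and its seed maternal libraries rose from 1.64, 2.40 and 1.31 CPM to 9.66, 15.1 and 17.4 CPM. No library of one stage reached the range of the other in either tissue. The difference of the 2 changes was −10.36 on the log2 scale (SE 1.04, adjusted p = 1.65e-09, edgeR). The opposite case was 1HG0059470.1, with 0 counts in all 3 endosperm libraries at 4 DAP and 27.5, 20.1 and 19.7 CPM at 8 DAP, at least 412-fold higher. The seed maternal libraries held at most 0.175 CPM at both stages, and the adjusted p of the difference was 0.00215 (edgeR).

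Among the 31 members with a peak at 8 DAP in both tissues, 4HG0390690.1 had the highest smaller maximum. Its endosperm libraries held 0.0826, 0 and 0 CPM at 4 DAP, 294, 289 and 181 CPM at 8 DAP and 0, 7.67 and 0.929 CPM at 16 DAP. Seed maternal libraries held 4.45, 0.180 and 0.528 CPM at 4 DAP, 668, 699 and 449 CPM at 8 DAP and 29.2, 28.8 and 45.7 CPM at 16 DAP. In both tissues the 8 DAP libraries stood above all others, so that the transcript appeared and receded between neighbouring stages. The rise was 352-fold in seed maternal tissues by the ratio of mean CPM. In endosperm the 4 DAP libraries held 3 counts in all. On another measure, the mean CPM at 8 DAP over those 3 counts in the pooled total of the group, the endosperm rise was 4676-fold, with a 95% interval from 1600.05 to 22674 for counting error only, so the 2 folds are not to be compared. Endosperm and seed maternal tissues at 8 DAP were not called different (log2 −0.79, SE 0.72, adjusted p = 0.358, edgeR). Over the 31 members the endosperm mean at 8 DAP was 18.4% to 467.8% of the seed maternal mean, with a median of 33.5%.

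7HG0653450.1 had an 8 DAP peak of the same kind, with 0 counts in all seed maternal libraries of 4 and of 24 DAP. At 8 DAP these held 120.1, 126 and 65.2 CPM, at least 3449-fold above 4 DAP, and the endosperm libraries 49.1, 49.5 and 31.3 CPM. At 24 DAP the endosperm still held 3.97, 3.68 and 6.62 CPM, at least 146-fold above the seed maternal tissues. Its change from 16 to 24 DAP differed between the tissues with an adjusted p of 0.000468 (edgeR).

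The step from 8 to 16 DAP went mostly downward. In endosperm 60 members were called lower and 26 higher, against 13.1% and 10.1% of all genes tested (23.2% in either direction). These were 57 and 25 without the second endosperm library of 16 DAP, and 51 and 27 without the third. The seed maternal calls were 50 lower and 24 higher, against 8.51% and 9.18% (17.7% in either direction). The difference between the tissues in this change was called for 54 members, 22 more positive and 32 more negative in endosperm, against 6.12% and 8.13% of all genes (14.2% in either direction). It was called for 57 without the second endosperm library of 16 DAP and for 47 without the third. With the series of the library numbers (their leading digits) added to the fit, the seed maternal calls were 6 lower and 9 higher, and the difference was called for 13 members. The share of all genes called in that fit is not given here. All seed maternal libraries of 16 and 24 DAP belong to 1 such series, linked to the others through a single embryo library. The median log2 change of the members was −1.12 in endosperm and −0.44 in seed maternal tissues, against −0.04 and 0.00 over all genes.

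After 16 DAP fewer members changed. In endosperm 20 were called lower and 5 higher from 16 to 24 DAP, against 3.54% and 3.47% of all genes (7.01% in either direction). Without the second library of 16 DAP, which stood above its replicates for 13 members, 9 were called lower and 3 higher. From 24 to 32 DAP 26 were called lower and 3 higher, against 7.20% and 6.19% (13.4% in either direction). All libraries of 32 DAP share a library series of their own, so stage and series cannot be told apart at this step either. Seed maternal tissues had 33 called lower and 9 higher from 16 to 24 DAP, against 3.94% and 4.18% (8.12% in either direction). The 2 tissues differed in this change for 15 members, 5 more positive and 10 more negative in endosperm, against 2.27% and 3.29% of all genes (5.56% in either direction), and for 14 without the second and 16 without the third endosperm library of 16 DAP. Over all stages, 134 members changed in endosperm and 124 in seed maternal tissues, against 73.5% and 42.1% of all genes tested.

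**Figure D4:**
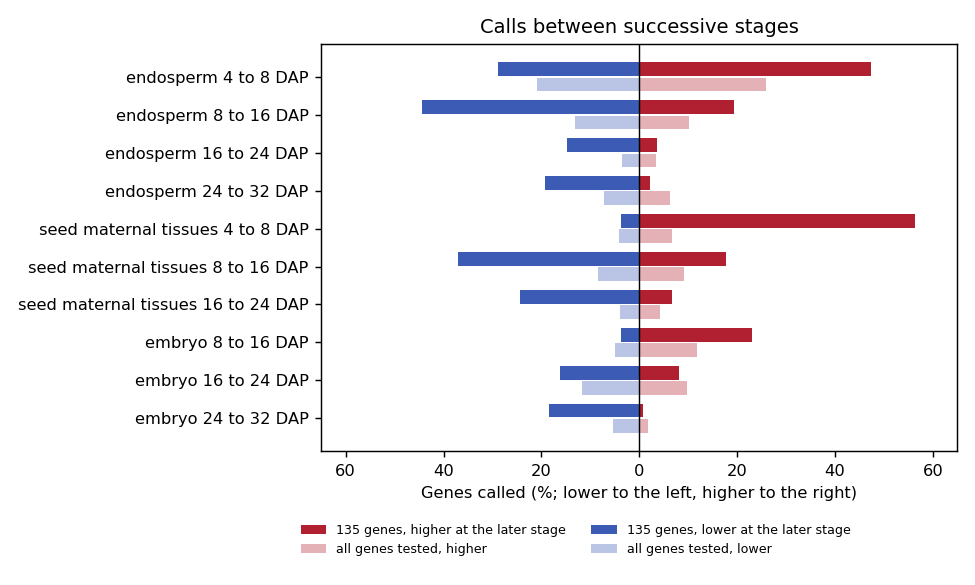
Percentage of genes called lower (left) and higher (right) at the later of 2 successive stages, for the 135 genes (dark bars) and for all 29594 genes tested (pale bars). The longest bar is the 56.3% of members called higher in seed maternal tissues from 4 to 8 DAP, against 6.61% of all genes. Members were chosen by stage maxima in the same counts, so the gaps between dark and pale bars are no test.

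Between the first and the last stage of each tissue the members went both ways. In endosperm, 67 were called lower at 32 than at 4 DAP and 40 higher, against 29.0% and 28.8% of all genes (57.9% in either direction), and the 3 libraries of 32 DAP lay wholly below those of 4 DAP for 63 members (26% of all genes tested) and wholly above for 51 (37.1%). The seed maternal tissues had 59 called higher at 24 than at 4 DAP and 41 lower, against 19.8% and 15.6% of all genes (35.4% in either direction), with the 24 DAP libraries wholly above for 63 (28.3% of all genes tested) and wholly below for 40 (24%). The endosperm libraries of 4 and 32 DAP lie in different library series that hold no other stage. Stage and series therefore cannot be told apart in that comparison. Seed maternal libraries of 4 and 24 DAP also belong to different series. The counts between first and last stage were not repeated under the alternatives.

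4HG0416260.1 was among the largest falls in both tissues. Its endosperm libraries held 783, 798 and 778 CPM at 4 DAP, 0.189, 0.599 and 3.82 CPM at 8 DAP and 0 counts from 24 DAP on. Its seed maternal libraries held 224, 41.5 and 37.1 CPM at 4 DAP, 21.8, 84.3 and 122 CPM at 8 DAP and 0.386, 1.2 and 2.73 CPM at 16 DAP, with 0 counts at 24 DAP. The endosperm lost it a stage before the seed maternal tissues did, where the libraries of 4 and 8 DAP overlapped. The fall from 4 DAP to the last stage was at least 21363-fold in endosperm and at least 3110-fold in seed maternal tissues. With the library series in the fit the seed maternal call from 4 to 24 DAP was lost (adjusted p = 0.387, edgeR).

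5HG0489760.1 had a like course. Its endosperm libraries fell from 156, 144 and 318 CPM at 4 DAP to 0.629, 0.599 and 5.38 CPM at 8 DAP (log2 −6.99, SE 0.73, adjusted p = 1.2e-07, edgeR). The seed maternal libraries held 447, 266 and 572 CPM at 4 DAP and 319.8, 431 and 311 CPM at 8 DAP, which overlap, and fell to 1.78, 5.79 and 4.56 CPM at 16 DAP (log2 −6.53, SE 0.71, adjusted p = 1.47e-06, edgeR). Its seed maternal call from 4 to 24 DAP was lost with the library series in the fit (adjusted p = 1.0, edgeR).

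2HG0174010.1, the most abundant member in seed maternal tissues, was high in both tissues at 4 DAP. It stood at 624, 703 and 488 CPM in endosperm and 781, 718 and 1021 CPM in seed maternal tissues, and the tissues were not called different (adjusted p = 0.378, edgeR). At 8 DAP the seed maternal libraries held 2409, 2814 and 2200 CPM, all above those of 4 DAP, but the change of 1.60 on the log2 scale did not pass the test (SE 0.73, adjusted p = 0.147, edgeR). At 16 DAP the endosperm libraries held 0.131, 38.6 and 1.27 CPM, a spread in which the second library stood apart. By 24 DAP endosperm held 1 count over 3 libraries and the seed maternal tissues 9.15, 1.99 and 3.84 CPM.

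Late rises ran in the other direction. 3HG0282510.1 had 0.138, 0.159 and 0 CPM in endosperm at 4 DAP, 88.4, 99.3 and 36.8 CPM at 16 DAP and 115, 110.1 and 100.1 CPM at 32 DAP (log2 change from 4 to 32 DAP 9.12, SE 0.57, adjusted p = 7.01e-15, edgeR). In seed maternal tissues it rose from 7.25, 6.96 and 7.30 CPM at 4 DAP to 207, 207 and 318 CPM at 24 DAP (log2 5.08, SE 0.39, adjusted p = 7.61e-12, edgeR). The first stage lay below the last without overlap in both tissues.

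7HG0730320.1 rose in endosperm and fell in seed maternal tissues. Its endosperm libraries held 0.503, 1.38 and 1.35 CPM at 8 DAP and 128, 86.2 and 58.5 CPM at 16 DAP, and 229, 189 and 190.3 CPM at 32 DAP. Seed maternal libraries held 283, 211 and 168 CPM at 8 DAP, 66.1, 70.0 and 93.3 CPM at 16 DAP and 12.8, 14.9 and 71.6 CPM at 24 DAP. Endosperm was 205-fold below the seed maternal tissues at 8 DAP and 4.20-fold above them at 24 DAP by mean CPM. Both differences passed the test, which used TMM-scaled levels (adjusted p = 9.25e-12 and 1.64e-06, edgeR). On that scale the 24 DAP difference was 2.92 in log2 (SE 0.43). 6HG0552470.1 crossed at the same step. It held 1.32, 2.87 and 3.72 CPM at 8 DAP and 28.0, 20.6 and 7.19 CPM at 16 DAP in endosperm, and 22.4, 18.8 and 10.4 CPM and then 0.232, 0.676 and 0.310 CPM in seed maternal tissues. The endosperm change exceeded the seed maternal one by 8.62 on the log2 scale (SE 0.73, adjusted p = 1.52e-09, edgeR).

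7HG0730340.1, close to 7HG0730320.1 by identifier, rose in seed maternal tissues instead. There it stood at 1.70, 0.810 and 0.653 CPM at 4 DAP and at 305, 366 and 220.5 CPM at 8 DAP. Its highest seed maternal mean was at 16 DAP, with 1608, 802 and 1030 CPM. The 24 DAP libraries, at 1064, 1109 and 833 CPM, overlapped those of 16 DAP (log2 change from 4 to 24 DAP 9.89, SE 0.67, adjusted p = 9.32e-13, edgeR). In endosperm it peaked at 136, 143 and 113 CPM at 8 DAP and held 7.91, 6.52 and 7.16 CPM at 32 DAP. 1HG0059470.1 appeared in the seed maternal tissues later, at 111, 94.8 and 75.5 CPM at 16 DAP and 229, 266 and 223 CPM at 24 DAP. In endosperm at 16 DAP its libraries held 20.6, 105 and 3.18 CPM, a wide spread in which the second library stood highest, and at 24 DAP 2.59, 1.40 and 1.83 CPM. Its endosperm change from 16 to 24 DAP lay −5.91 from the seed maternal one on the log2 scale (adjusted p = 0.000248, edgeR), and −4.07 without that library (adjusted p = 0.000623, edgeR).

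5HG0490890.1 was lost from endosperm by 16 DAP and kept in seed maternal tissues. Its endosperm libraries held 50.3, 85.2 and 42.5 CPM at 4 DAP, 23.7, 16.4 and 8.92 CPM at 8 DAP and 0 counts at 16 DAP. Its seed maternal libraries held 118, 165 and 86.9 CPM at 8 DAP and 189, 92.6 and 59.0 CPM at 16 DAP, at least 1890-fold above endosperm. All 12 embryo libraries held 0 counts of it. The difference between the tissues in the change from 8 to 16 DAP had an adjusted p of 0.00184 (edgeR), a call that was lost with the library series in the fit.

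**Figure D5:**
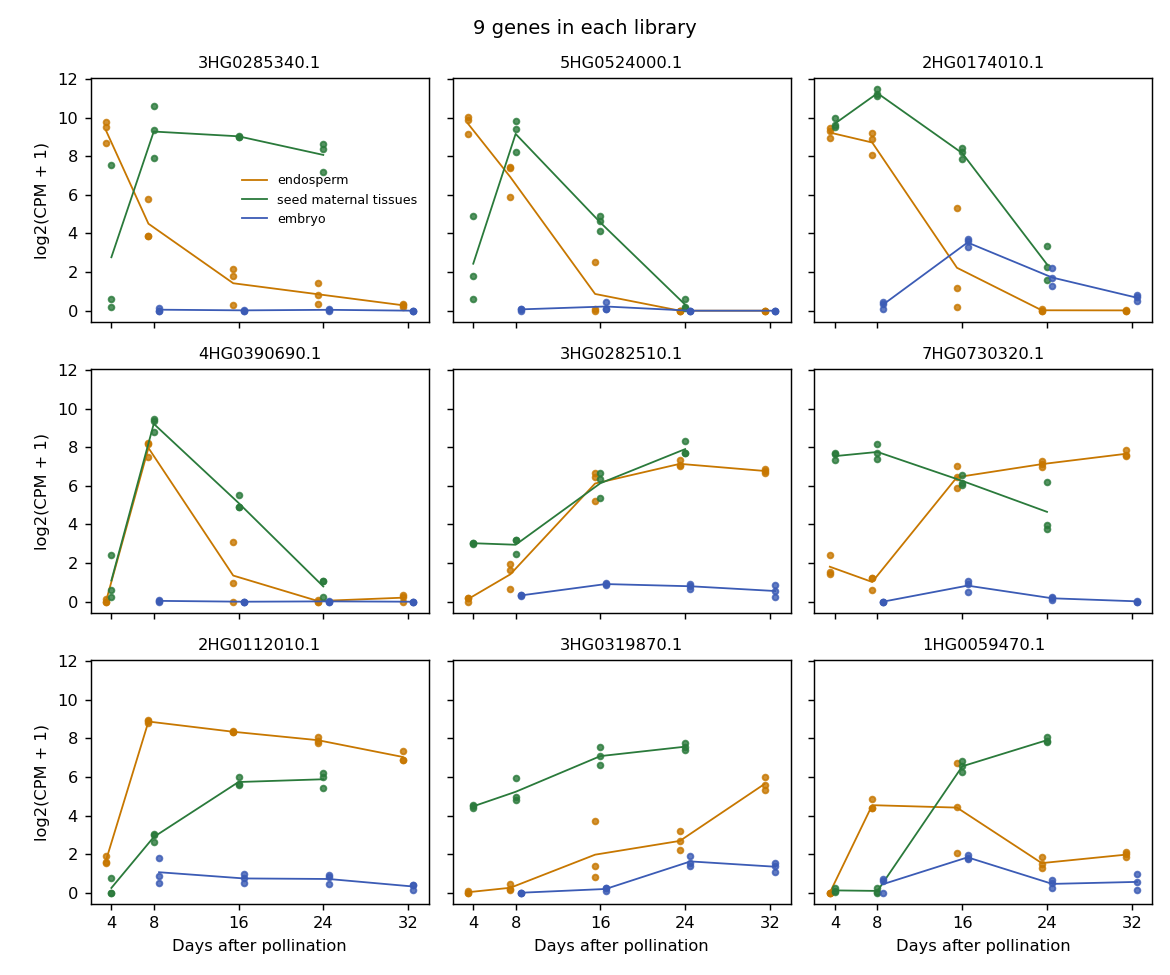
Level of 9 named genes in every library as log2(CPM + 1) against days after pollination, with lines through the mean of the log values of 3 libraries. The upper row shows genes that leave the endosperm early, 4HG0390690.1 the shared peak at 8 DAP, and the remaining panels late rises or a lasting difference between the tissues.

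Endosperm and seed maternal tissues were called different within a stage for 75.6%, 60.7%, 61.5% and 50.4% of members, from 4 to 24 DAP. The calls went in both directions, and the share at 24 DAP was near the 44.4% of all genes tested. With the library series in the fit far fewer were called at 16 and 24 DAP, as given below. That fit could not be made at 4 DAP, where all endosperm libraries are of a series of their own. Tissue and series cannot be told apart at that stage. The rule bounds how far the 2 maxima differ, not the levels at a stage. At 4 DAP 63 members were called higher and 39 lower in endosperm, against 25.0% and 32.4% of all genes (57.4% in either direction). With library size alone as the scaling, which moves the median of all genes to −1.53 on the log2 scale, the split turned to 50 and 56, and without the first seed maternal library it was 65 and 37. At 8 DAP 30 were higher and 52 lower, against 23.9% and 24.7% of all genes (48.6% in either direction), and with library size alone 22 and 66. At 16 DAP 25 were higher and 58 lower, against 22.7% and 26.5% (49.2% in either direction); without the second endosperm library these were 25 and 57, and without the third 25 and 49. At 24 DAP 24 were higher and 44 lower, against 18.8% and 25.6% (44.4% in either direction). At these stages library size alone gave 17 and 72, and 16 and 64. With the library series in the fit, 9 were higher and 16 lower at 16 DAP, and 10 and 17 at 24 DAP. The shares of all genes under these other settings are not given here, so the shifts are not shown to be particular to the members. Over the 4 stages, 56 members were called in both directions at different stages, 36 only higher, 39 only lower and 4 at none, against 9.35%, 34.9%, 39.6% and 16.1% of all genes tested.

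At all 4 shared stages 4 members were called higher in endosperm and 3 lower, against 5.48% and 10.8% of all genes tested. 2HG0112010.1 held 491, 442 and 467 CPM in endosperm at 8 DAP against 7, 7.29 and 5.11 CPM in seed maternal tissues, and 266, 216 and 234 CPM against 63.0, 73.4 and 41.7 CPM at 24 DAP. Its smallest log2 difference was 2.82 (SE 0.46, adjusted p = 5.52e-06, edgeR), at 24 DAP. 3HG0319870.1 held 0.126, 0.120 and 0.354 CPM in endosperm at 8 DAP against 26.6, 29.7 and 61.2 CPM in seed maternal tissues, and its smallest difference, at 16 DAP, was −3.95 (SE 0.54, adjusted p = 4.87e-07, edgeR). In both genes the groups were apart at every shared stage, though 3HG0319870.1 reached 46.4, 39.5 and 63.2 CPM in endosperm at 32 DAP.

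Another pair of members stands for the combinations with a later seed maternal peak. 2HG0201360.1 held 343, 317 and 191 CPM in endosperm at 8 DAP and 45.5, 75.2 and 14.1 CPM at 16 DAP. In seed maternal tissues it held 62.9, 4.35 and 3.01 CPM at 4 DAP, 804, 908 and 659 CPM at 8 DAP and 1119, 579 and 709.6 CPM at 16 DAP, with the last 2 groups overlapping. 2HG0127250.1 was steadier, with 147, 134 and 137 CPM in endosperm at 8 DAP and 67.9, 63.8 and 49.9 CPM at 24 DAP. The seed maternal libraries held 37.5, 60.8 and 90.2 CPM at 8 DAP and 71.3, 99.9 and 38.0 CPM at 24 DAP, which overlap.

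The level of each tissue's abundant genes in the other tissue was measured as well. Of 2399 genes at 100 CPM or more in seed maternal tissues at 8 DAP, 167 lay under 1% of that level in endosperm. At 24 DAP the seed maternal libraries carried more of the endosperm's genes than at earlier stages. There 16 of 1324 genes at 100 CPM or more in endosperm lay under 1% of that level, and the fiftieth lowest stood at 2.29%. Under 1% were 112 of 1479 such genes at 4 DAP, 158 of 1856 at 8 DAP and 116 of 1239 at 16 DAP. The part of RNA from the other tissue in the results was not tested.

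Within the embryo, where all levels were low, 31 members were called higher and 5 lower from 8 to 16 DAP, against 11.8% and 4.93% of all genes (16.7% in either direction). From 16 to 24 DAP 11 were higher and 22 lower, against 9.75% and 11.8% (21.5% in either direction), and from 24 to 32 DAP 1 was higher and 25 lower, against 1.83% and 5.35% (7.18% in either direction). With the library series in the fit the split from 16 to 24 DAP was 14 and 15. 2HG0174010.1, for example, held 0.0656, 0.283 and 0.381 CPM in embryo at 8 DAP and 8.77, 11.9 and 11.3 CPM at 16 DAP, without overlap.

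Some members were neighbours by identifier. In 8 pairs, 16 members in all, the identifiers lay at most 2 steps apart. These are 11.9% of the members, against 42.5% in such pairs among the shared genes, a far larger set. For 7 of these pairs Pearson's r over the 9 group means of endosperm and seed maternal tissues was between 0.823 and 0.999, as a description over means that share libraries. 2HG0197030.1 and 2HG0197040.1, the latter the most abundant member in endosperm, had r = 0.996, and 7HG0730320.1 and 7HG0730340.1 had r = −0.0741. How the counting treated reads that match near-identical copies is not stated, so the levels within such pairs are uncertain. The chromosome labels in the identifiers put 21 members on 1H, 29 on 2H, 24 on 3H, 19 on 4H, 12 on 5H, 16 on 6H and 14 on 7H.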

How the data were processed

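Per the labels' protocols, poly-A selected RNA was sequenced as single-end reads. The deposited table holds raw read counts per transcript entry in 1 column per library, not pooled or normalized by the authors, per the file headers. The submitters' processing notes name bcl2fastq, HISAT2 2.1.0, SAMtools and Subread 1.5.2; genome build, strand setting and the handling of reads with several matches are not given in the sources used here. Entries are called genes.

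CPM was computed over column totals. The counts went into edgeR 4.0.16 (with limma 3.58.1, under R 4.3.3): filterByExpr kept 29594 genes, all 135 members among them, and 1 model with 13 group coefficients (26 residual degrees of freedom) was fitted to 39 libraries with TMM factors and robust glmQLFit. P-values were adjusted by Benjamini-Hochberg over all genes tested, with calls at an adjusted p under 0.05 and a log2 change of 1 or more either way. The steps were tested on simulated data. DESeq2 1.42.0, other scalings, no filter, a replicate block, library series and left-out libraries were alternatives. With a library left out, the dispersion trend of the whole data was kept.

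Folds against a group at 0 counts are bounds against 3 counts over the group; intervals and floors cover counting error only. Samples were not treated as paired by replicate number. In no comparison did all 3 same-number correlations of deviations pass 0.1, but such a cutoff cannot show that samples were unpaired. From 8 to 16 DAP in endosperm they were 0.036, 0.0838 and 0.0852, against at most 0.00977 between unlike numbers.

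Members and lists were chosen with earlier results of these data known. Genes were named by a rule: the 3 highest smaller maxima, the genes at each threshold, the 2 largest rises and falls of each tissue with at least 100 CPM and no overlap, the member with the largest smallest difference in each direction at all shared stages, the strongest tissue difference in change per step and direction, and the top member of each peak combination of at least 10. 3HG0285330.1, 2HG0197030.1 and 2HG0197040.1 were named after their values were seen. Gene lists and cell type markers that had been planned by description were not run, since 0 identifiers matched the reference table.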

Additional observations from a re-analysis of the deposited data

Results flagged for a closer look

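The differences between the tissues below are the largest fitted ones, per step and direction, among the 93, 54 and 15 members for which the test of the difference itself passed. From 4 to 8 DAP the adjusted p (edgeR) was 0.00215 for 1HG0059470.1, with the endosperm change the more positive, and 1.65e-09 for 3HG0283090.1, with it the more negative. From 8 to 16 DAP it was 1.52e-09 for 6HG0552470.1, more positive in endosperm, and 0.00184 for 5HG0490890.1, more negative. The latter call was lost with the library series in the fit (log2 −11.25, adjusted p = 1.0, edgeR). From 16 to 24 DAP it was 0.000468 for 7HG0653450.1, more positive in endosperm, and 0.000248 for 1HG0059470.1, more negative. In 1HG0059470.1 the endosperm libraries of 16 DAP held 20.6, 105 and 3.18 CPM, so the last difference rests on a group with a wide spread. Groups of 3 were too small for a test of single outlying libraries.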

How the results depend on the processing

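The alternatives covered 21 counts of calls, of which 13 could be run with the library series and 19 were run with DESeq2. The counts between the first and last stage of each tissue were not among them. Where a count had a direction, none turned under any alternative run, other than the splits named beside them. Without the second endosperm library of 16 DAP, 12 members were called from 16 to 24 DAP instead of 25, within 12 to 26 over all libraries left out. With the library series in the fit, 15 were called in seed maternal tissues from 8 to 16 DAP instead of 74, 25 and 27 between the tissues at 16 and 24 DAP instead of 83 and 68, and 13 for the difference in change from 8 to 16 DAP instead of 54; seed maternal tissues of 16 and 24 DAP share 1 series, and steps with endosperm at 4 DAP or any tissue at 32 DAP could not be fitted. DESeq2 called 23 differences in change from 16 to 24 DAP instead of 15. The count of opposite changes from 4 to 8 DAP was 12 to 22, and that of crossing levels 13 to 21, with each library left out. The cause of these shifts was not tested. Counts under the alternatives stand without the share of all genes under the same setting, so they do not show a shift particular to the members.

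Leaving out each library gave 98 to 103 calls in endosperm from 4 to 8 DAP and 64 to 81 in seed maternal tissues. The replicate block moved no count by over 1.5 times. Of 606 alternatives to 42 named values, 592 kept the call, 10 lost it and 4 gained one. The rule kept 119 of the 135 with CPM over TMM library sizes, 91 at 20-fold over embryo and 120 to 125 without 1 replicate number. The endosperm library with the fewest counts set a floor of 0.488 CPM, below which a level is not told from 0.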
